A study of Mus musculus with 6 samples.

Results

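Plasma protein genes typical of liver were followed in whole pancreas of mice at postnatal day 7, in which Prox1 was switched on in the Ptf1a-Cre lineage. The set held 10 genes out of 23337 gene symbols in the count files, namely Ahsg, Fetub, Serpina6, Gc, Itih4, Alb, Ambp, Serpina1b, Apoa1 and Hp, each found as 1 row in all 6 libraries. They were chosen from the mutant against control comparison itself, some because they were higher in mutants and others because they were not, so their values in that comparison are given as a description and carry no test. The question addressed was whether single plasma protein genes or liver gene expression in general was present in the mutant pancreas.

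The mutant group consisted of 3 libraries that carried Ptf1a cre/+ together with the transgene CAG-loxP-STOP-loxP-Prox1-LacZ, whose stop cassette is cut out by Cre, after which the CAG promoter drives Prox1 and LacZ. The control group consisted of 3 libraries of genotype Ptf1a cre/+, so that both groups carried Cre at 1 Ptf1a allele. All animals were of strain NMRI. Control libraries are described as pools in the design text and mutant libraries as single pancreata, while the protocol for RNA extraction names single organs for both, and pooling and genotype therefore cannot be told apart. Cre made from Ptf1a acts in pancreas progenitors, so the switch is not limited to mature acinar cells. Prox1 itself was at 25.5, 31.3 and 30.9 CPM (counts scaled to a common library size, so that 1 CPM was 6.65 to 10.5 counts) in mutant libraries 1 to 3, against 10.8, 7.84 and 9.13 CPM in control libraries 1 to 3. Total counts lay between 7729161 and 9957737 in mutants and between 7304727 and 10773223 in controls. In a whole organ, fewer cells of a type and less RNA per cell cannot be told apart.

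Plasma proteins are secreted mainly by hepatocytes, where their genes are driven together by HNF4, FOXA, C/EBP and other factors. Liver and pancreas arise side by side from foregut endoderm and share several of these factors, and Prox1 is itself made in both organs. Among the genes studied, Gc is also known from glucagon-producing alpha cells and Hp from fat cells and neutrophils, so not each of them is a sign of liver. By GENCODE M21 on GRCm38, all were protein-coding. Ahsg (chromosome 16, 22891277 to 22899449) and Fetub (chromosome 16, 22918334 to 22939778) were neighbours on the plus strand. Serpina6 (chromosome 12, 103646630 to 103657212) and Serpina1b (chromosome 12, 103728156 to 103830373) lay in the serpin cluster on the minus strand. Gc (chromosome 5, 89417522 to 89457898, minus strand) and Alb (chromosome 5, 90460897 to 90476602, plus strand) belong to the albumin family. Itih4 was on chromosome 14 (30886476 to 30902353), Ambp on chromosome 4 (63143275 to 63154799), Apoa1 on chromosome 9 (46228580 to 46230466) and Hp on chromosome 8 (109575128 to 109579172).

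The promoters of Gc, Alb and Ahsg are shown because Gc held the most counts of the set, Alb is the emblem of liver, and Ahsg was clearly present in mutants and at or near 0 in controls. They come from RefSeq on GRCm38.p6 and run from 250 bases before to 50 bases after the start annotated there, 5′ to 3′ on the gene's strand. That start can differ from the end of the GENCODE span given above. The windows of Ahsg and of Serpina1b (chr12:103738140-103738439) lie inside the GENCODE spans of these genes. Capitals mark matches, on either strand, to the motifs GTTAAT (a homeodomain core), AAAGTCC (HNF4), TGTTTAC (FOXA) and TTGCNNAA (C/EBP).
Gc, chr5:89457849-89458148, minus strand: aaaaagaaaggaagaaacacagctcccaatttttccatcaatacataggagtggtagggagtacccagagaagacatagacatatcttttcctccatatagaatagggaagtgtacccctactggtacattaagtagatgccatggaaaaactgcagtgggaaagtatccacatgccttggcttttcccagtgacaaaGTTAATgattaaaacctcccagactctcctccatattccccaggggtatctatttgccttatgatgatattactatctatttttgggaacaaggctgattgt
Alb, chr5:90460620-90460919, plus strand: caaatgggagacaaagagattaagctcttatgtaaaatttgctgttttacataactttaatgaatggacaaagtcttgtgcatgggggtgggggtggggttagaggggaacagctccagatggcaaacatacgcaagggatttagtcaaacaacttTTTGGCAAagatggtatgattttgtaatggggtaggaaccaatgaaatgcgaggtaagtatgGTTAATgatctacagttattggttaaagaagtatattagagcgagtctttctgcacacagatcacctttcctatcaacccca
Ahsg, chr16:22891765-22892064, plus strand: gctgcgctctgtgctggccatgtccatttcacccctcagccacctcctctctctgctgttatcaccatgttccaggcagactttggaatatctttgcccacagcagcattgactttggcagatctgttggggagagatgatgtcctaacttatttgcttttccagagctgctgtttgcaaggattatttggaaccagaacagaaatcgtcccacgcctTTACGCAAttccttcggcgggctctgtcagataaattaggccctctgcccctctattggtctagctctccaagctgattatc
GTTAAT began 52 bases before the start of Gc and 32 bases before that of Alb, and another match lay 26 bases before the start of Serpina1b. It was thus found in 3 of the 8 genes whose promoter was in the RefSeq table, and in 7.1% of all 32851 promoters of that length. A C/EBP match began 32 bases before the start of Ahsg and 94 bases before that of Alb, and this motif was found in 3 of the 8 genes and in 10.8% of all promoters. A FOXA match was found in Fetub alone among the 8, against 3.65% of all promoters, and the HNF4 letters in 0 of 8, against 4.21%. The Fetub match was in its promoter at chr16:22919972-22920271 and not in that at chr16:22918132-22918431. A gene was counted when any of its promoters matched, whereas the percentages are over single promoters, so these units differ. The marked matches did not overlap one another.

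Serpina6 and Gc, the carriers of steroid hormone and vitamin D, held most of the counts of the set in mutants. Serpina6, which encodes corticosteroid-binding globulin, had 1905, 695 and 829 counts in mutants 1 to 3, against 8, 6 and 12 counts in controls 1 to 3. On the CPM scale these were 181, 80.6 and 82.8 in mutants, against 1.20, 0.663 and 1.15 in controls. The lowest mutant library was 67.0 times the highest control library, and mutant 1 stood above the other two mutants. The ratio of group means was 114, and the log2 fold change of the edgeR fit was 6.83 ± 0.44 (SE, n = 3 per group).

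Gc, the vitamin D-binding protein, had the highest level of the set in both groups. It was at 806, 663 and 673 CPM in mutants, against 150, 93.9 and 173 CPM in controls. The mutants lay close together, within a factor of 1.22, and all were above all controls. The mean was 714 ± 79.7 CPM in mutants and 139 ± 40.7 CPM in controls (SD, n = 3 each), a ratio of 5.14. Because alpha cells also make Gc, their markers are given beside it. Gcg, the glucagon gene, was at 1116, 1022 and 1310 CPM in mutants, against 1108, 930 and 621 CPM in controls. Of 7 alpha cell markers tested with edgeR, 0 passed an adjusted p of 0.05, 1 was higher and 0 were lower at an unadjusted p under 0.05, and DESeq2 called 0. Among all genes tested, 5.41% were higher and 7.36% lower at that unadjusted threshold. The summed level of all 10 alpha markers was 1270 to 1653 CPM in mutants and 864 to 1422 CPM in controls.

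The fetuins Ahsg and Fetub sit next to each other, and both were higher in mutants, by different amounts. Ahsg encodes fetuin-A, which keeps calcium phosphate in solution. It had 513, 123 and 331 counts in mutants, against 0, 4 and 0 counts in controls, or 48.8, 14.3 and 33.0 CPM against 0, 0.442 and 0 CPM. All 4 control counts were thus in control 2, and all mutants lay far above it. The ratio of summed counts on scaled library sizes was 217, with an exact 95% interval of 84.3 to 797 that covers counting error only. The fitted log2 fold change depends on the prior count and was 7.60, or 11.22 without control 2. Fetub, which encodes fetuin-B, an inhibitor of egg-coat proteases in mice, had 35, 21 and 35 counts in mutants, against 2, 9 and 7 counts in controls. Its log2 fold change was 2.16 ± 0.39 (SE), and the groups did not overlap, but even in mutants it stayed at 2.44 to 3.49 CPM. Of the exon bases of Ahsg, 2.82% are overlapped by Gm30505 on the other strand, and reads there cannot be assigned without the strand setting.

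The protease inhibitor genes were not of 1 kind. Itih4, a heavy-chain member of the inter-alpha-trypsin inhibitor family, had 53, 26 and 43 counts in mutants, against 7, 6 and 11 counts in controls, without overlap (log2 fold change 2.15 ± 0.34 SE). Ambp encodes the precursor of alpha-1-microglobulin and of bikunin, the light chain of the same inhibitor family. It was at 44.2, 24.4 and 50.4 CPM in mutants, against 34.9, 39.4 and 43.2 CPM in controls. The controls lay inside the range of the mutants, and the log2 fold change was 0.02 ± 0.22 (SE), ranging from -0.19 to 0.27 over the alternatives. Serpina1b, 1 of the mouse alpha-1-antitrypsin copies, had 2, 25 and 12 counts in mutants, against 4, 7 and 11 counts in controls. It was too low to be tested, its groups overlapped, and 29.5% of the 50-base stretches of its transcripts also occur in other genes, most often Serpina1a, so its counts are uncertain.

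Alb and Apoa1, the most familiar hepatocyte products of the set, were low and uneven. Alb had 163, 112 and 376 counts in mutants, against 82, 65 and 80 counts in controls, with means of 22.0 ± 13.5 CPM in mutants and 9.07 ± 2.84 CPM in controls (SD, n = 3 each). On the CPM scale all mutants were above all controls, but the lowest mutant exceeded the highest control by a factor of only 1.05, and mutant 3 stood apart. The ratio of means was 2.43, and 1.57 without mutant 3. Apoa1, the main protein of high-density lipoprotein, had 0, 2 and 36 counts in mutants, against 2, 0 and 0 counts in controls. Its groups overlapped, and mutant 3 alone held nearly all of its counts. The ratio of its summed counts was 17.0, with an exact 95% interval of 4.40 to 146 for counting error only, and 1.16 as a ratio of mean CPM without mutant 3.

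Hp, the haemoglobin scavenger haptoglobin, was the only gene of the 10 with all mutants below all controls. It had 3, 9 and 10 counts in mutants, against 13, 40 and 32 counts in controls, and its log2 fold change was -2.05 ± 0.47 (SE). Fat cell markers moved with it. Their summed level over 10 genes was 44.0, 64.1 and 49.2 CPM in mutants, against 76.7, 128 and 147 CPM in controls, and 5 of the 10 were at 0 in mutant 1 and in mutant 3. Most of this sum was Fabp4, a fatty acid carrier, at 39.2, 49.8 and 43.9 CPM in mutants, against 64.8, 87.7 and 96.5 CPM in controls. Of 7 tested, Fabp4 fell (log2 fold change -0.91 ± 0.15 SE, edgeR adjusted p = 0.0125). The median log2 fold change of the 7 was -2.40. In 5 of the 11 alternatives Fabp4 no longer passed, the highest edgeR adjusted p being 0.0801, namely with library totals and without mutant 1, mutant 3, control 2 or control 3. At an unadjusted p under 0.05, 6 of the 7 fat cell markers were lower, beside 7.36% of all genes tested. Summed neutrophil markers were 23.2, 34.0 and 19.9 CPM in mutants, against 43.2, 90.6 and 22.1 CPM in controls. The part of either cell type in the level of Hp was not tested.

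**Figure D1:**
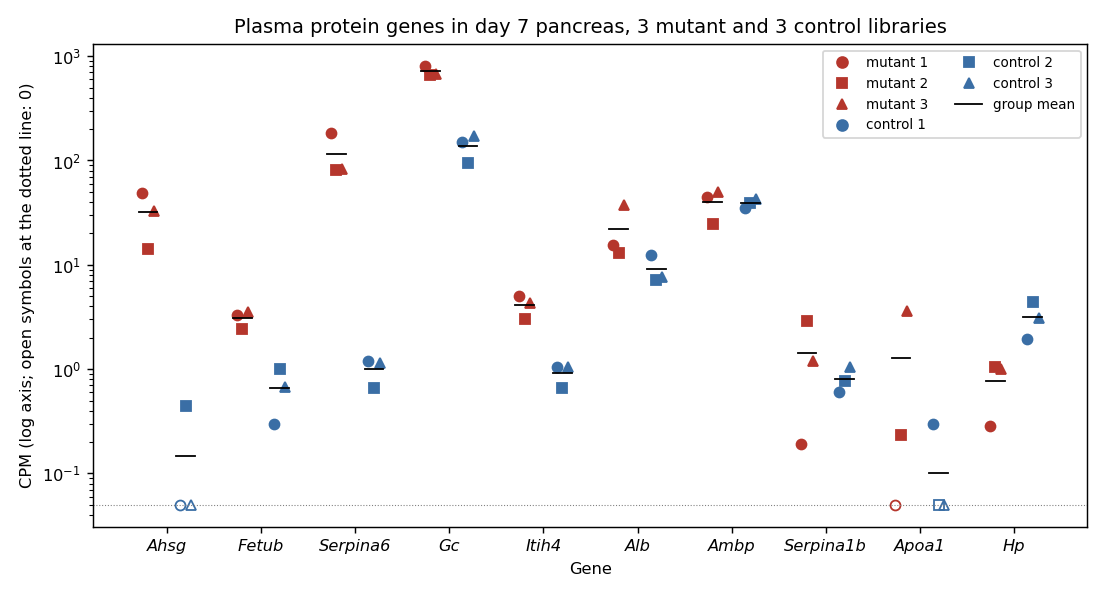
CPM on a log axis of each of the 10 plasma protein genes in 3 mutant (red) and 3 control (blue) libraries, with symbols for the replicate, black lines for group means and open symbols on the dotted line for 0. Ahsg, Serpina6 and Gc show the widest gaps between groups, with lowest mutants at 14.3, 80.6 and 663 CPM, whereas the groups overlap in Ambp, Serpina1b and Apoa1.

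In all, 6 of the 10 genes had all mutant libraries above all control libraries and 1 had them below, as in 9.13% and 9.86% of the 13017 genes tested. Nothing is read from these counts, because the genes were chosen from the same comparison. Of the 10, 8 passed the filter on low counts. Ahsg, Fetub, Itih4 and Serpina6 passed it through the mutants and Hp through the controls. The fit called 5 of these 8 higher and 0 lower, where 2.06% of all genes tested were called, 0.545% higher and 1.51% lower, and this count too follows from the choice.

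Divided by exon length, the order of levels differed between the groups. In mutants the mean CPM per kb was 387 for Gc, 65.3 for Serpina6, 28.1 for Ambp, 14.6 for Ahsg and 9.40 for Alb, and at most 1.57 for the other genes. In controls it was 75.3 for Gc, 27.8 for Ambp, 3.87 for Alb and 1.96 for Hp, and at most 0.571 for the others, with Ahsg lowest at 0.0671. Serpina6 ranked 2 in mutants and 5 in controls, and Ahsg ranked 4 in mutants and 10 in controls. In mutants Ahsg overlapped with Ambp and with Alb. In controls Serpina6, Serpina1b, Fetub, Itih4, Apoa1 and Ahsg overlapped with their neighbours in the order. The ranks of Ahsg in both groups and of Serpina6 in controls are thus uncertain.

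The sum of the 10 genes was 1105, 805 and 891 CPM in mutants, against 202, 148 and 231 CPM in controls. That was 0.0987 ± 0.0154% of all counts in mutants and 0.0183 ± 0.00410% in controls (SD, n = 3 each). Gc made up 77.0 ± 4.85% of the set's counts in mutants and 70.7 ± 6.50% in controls. The share of Serpina6 was 11.9 ± 3.92% in mutants and 0.514 ± 0.0752% in controls, and that of Ambp was 4.23 ± 1.33% in mutants and 20.8 ± 5.01% in controls. Without Gc the sum was 299, 142 and 217 CPM in mutants, against 52.6, 54.6 and 57.9 CPM in controls. Mutant 2 had the lowest value among mutants in 7 of the 10 genes, and mutant 1 the highest in Ahsg, Serpina6, Gc and Itih4. Prox1 was lowest in mutant 1, and a relation of its level to that of the 10 genes was not tested.

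Liver genes outside the set were taken from 7 lists of plasma carriers, protease inhibitors, coagulation factors, complement, metabolic enzymes, transporters and transcription factors. Of their 202 genes in the files, 27 were at 0 in all 6 libraries and 88 were high enough to test. Of the 88, 8 rose and 1 fell (edgeR adjusted p under 0.05), beside 0.545% higher and 1.51% lower among all genes tested, and the other 79 did not pass. The median log2 fold change of the 88 was -0.02, beside 0.00 for all genes tested, and with library totals alone 0.15, beside 0.17 for all genes. Without the transcription factors, 8 of 64 rose and 0 fell, and the median was 0.14, or 0.30 with library totals alone. At an unadjusted p under 0.05, 18 of the 88 were higher and 11 lower, beside 5.41% and 7.36% of all genes tested. Of the 64, 18 were higher and 6 lower at that threshold.

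The genes that rose were mostly secreted proteins. Among plasma carriers, 4 of 15 tested rose and 0 fell. Cp, the copper carrier ceruloplasmin, was at 85.0, 102 and 97.2 CPM in mutants, against 41.8, 37.2 and 36.4 CPM in controls (log2 fold change 1.30 ± 0.11 SE, edgeR adjusted p = 0.000156). Agt, the angiotensin precursor, was at 25.4, 9.51 and 28.1 CPM in mutants, against 3.46, 3.09 and 4.32 CPM in controls (log2 fold change 2.53 ± 0.38, edgeR adjusted p = 0.00657, and 0.0589 without control 2). In both genes all mutants were above all controls, and in Agt mutant 2 was again the lowest mutant. Rbp4, the retinol carrier, rose by 1.00 ± 0.13 on the log2 scale (edgeR adjusted p = 0.00381), and Vtn, the adhesive protein vitronectin, by 0.63 ± 0.14 (edgeR adjusted p = 0.0476). Vtn no longer passed in 6 of the 11 alternatives, the highest edgeR adjusted p being 0.229, namely with the replicate block and without mutant 1, mutant 3 or any 1 control. The remaining carriers of high level did not pass, namely Apoe (log2 fold change 0.23), Igf1 (-0.47, called lower by DESeq2 with adjusted p = 0.0132) and the selenium carrier Sepp1 (0.30). Ttr, the thyroxine carrier, was at 132, 97.5 and 150 CPM in mutants, against 133, 138 and 94.3 CPM in controls.

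Among protease inhibitors, 3 of 9 tested rose and 0 fell. Pzp, an alpha-2-macroglobulin relative that traps proteases, was at 8.28, 7.66 and 11.6 CPM in mutants, against 0.601, 0.773 and 0.577 CPM in controls (log2 fold change 3.79 ± 0.29 SE, edgeR adjusted p = 9.9e-05). Serpina10, the protein Z-dependent inhibitor of clotting factor X, was at 19.6, 19.3 and 16.5 CPM in mutants, against 5.26, 5.86 and 4.81 CPM in controls (1.80 ± 0.15, edgeR adjusted p = 0.000156). Itih2, another heavy chain of the inter-alpha-trypsin inhibitor, was at 45.0, 46.2 and 62.4 CPM in mutants, against 19.8, 20.6 and 19.0 CPM in controls (1.37 ± 0.14, edgeR adjusted p = 0.000629). Of the 5 heavy-chain family genes, Itih2 and Itih4 were thus higher in all mutants, while the groups overlapped in Itih1, Itih3 and Itih5, as in Ambp, which encodes the light chain. Itih5 (0.09), Serping1 (0.17) and Serpinf1 (0.35) did not pass. Serpina7, the thyroxine-binding relative of Serpina6, was too low for the test and is named because of its values. It had 32, 10 and 9 counts in mutants, against 0 counts in each control, and was at least 15.2-fold higher when controls are set to a floor of 3 counts over the group, and at least 8.87-fold without mutant 1.

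Blood clotting, complement and liver metabolism gave few calls. Of 6 coagulation genes and 11 complement genes tested, edgeR and DESeq2 each called 0. Among them 3 and 1 were higher and 0 and 0 lower at an unadjusted p under 0.05. The shares among all genes tested were 5.41% higher and 7.36% lower. The abundant members were Habp2 (-0.28), Pros1 (0.40), Proc (-0.43), C3 (-0.07), C2 (0.20) and C1s, none of which passed. Of 15 metabolic enzymes tested, Mat1a, the liver form of methionine adenosyltransferase, rose and 0 fell. It was at 236, 134 and 186 CPM in mutants, against 26.6, 32.6 and 28.5 CPM in controls (log2 fold change 2.66 ± 0.20, edgeR adjusted p = 6.9e-05). Of 8 transporters and receptors tested, edgeR and DESeq2 each called 0, with 1 higher and 2 lower at an unadjusted p under 0.05.

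**Figure D2:**
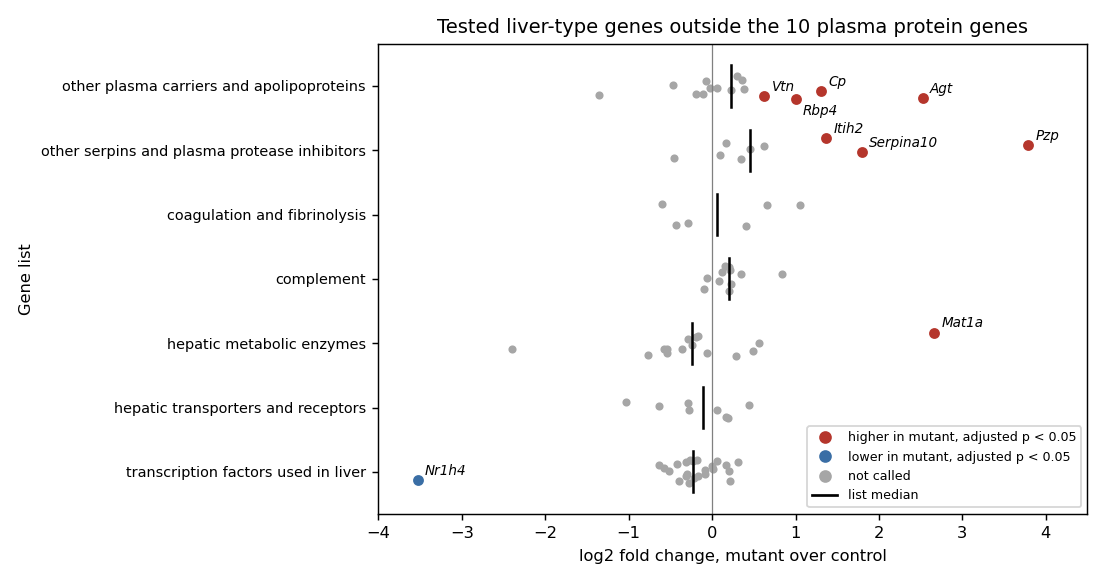
Log2 fold change, mutant over control, of the 88 tested genes in 7 liver-type lists, with called genes in colour and named, other genes in grey and list medians as black bars. The 8 genes that rose are 7 secreted plasma proteins and the enzyme gene Mat1a, and the 1 that fell is the bile acid receptor gene Nr1h4.

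Transcription factors used in liver were not called higher. Of 24 tested, 0 were higher by edgeR, by DESeq2 or at an unadjusted p under 0.05. Among all genes tested, 0.545% were called higher by edgeR and 5.41% were higher at that unadjusted threshold. Of the same 24, 1 fell, beside 1.51% of all genes, and 5 were lower at the unadjusted threshold, beside 7.36%. The median log2 fold change of the 24 was -0.22. Nr1h4, the bile acid receptor FXR, was at 1.62, 1.74 and 0.499 CPM in mutants, against 15.9, 16.6 and 12.2 CPM in controls, 11.6-fold lower (log2 fold change -3.53 ± 0.31, edgeR adjusted p = 0.000229). Hnf4a, a central hepatocyte factor, was at 12.8, 16.2 and 16.7 CPM in mutants, against 25.9, 20.2 and 22.1 CPM in controls, without overlap, and did not pass (-0.57 ± 0.15, edgeR adjusted p = 0.0903). Nr3c1, the glucocorticoid receptor, Gata4 and Nr5a2 were the most abundant and did not pass.

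Most other genes that define hepatocytes were near 0. Of 15 such markers outside the set, 4, among them Ttr, F2 and Mat1a, were present in pancreas of both groups and tested, and the other 11 were too low. Those 11, among them Cps1, Otc, Tat, Cyp2e1, Cyp3a11, Slc10a1, Asgr1, Apob and Fgb, summed to 12, 3 and 39 counts in mutants, against 5, 10 and 9 counts in controls. Otc and Slc10a1 were at 0 in all 6 libraries. Mutant 3 was the highest. Apoa1 and the lists without transcription factors, 175 genes, were then searched for genes with at least 5 counts in mutant 3 and at most 3 in each other library. The search found 9. It was not run for the other libraries, and its rule fixes that these genes are high in mutant 3. Besides Apoa1 they were Afp (13 counts in mutant 3), Fga (10), Hpx (8), Serpinc1 (8), Fgb (7), Apoh (6), Fgg (5) and Fabp1 (5). In mutants 1 and 2 the 11 hepatocyte genes summed to 1.14 and 0.348 CPM, against 0.752 to 1.10 CPM in controls, while Serpina6 was at 181 and 80.6 CPM and Ahsg at 48.8 and 14.3 CPM. Without mutant 3 the log2 fold changes were 7.02 for Serpina6, 7.58 for Ahsg, 2.40 for Gc, 2.12 for Itih4 and 2.07 for Fetub, against 0.68 for Alb. The part of hepatocyte RNA in the high Alb and Apoa1 values of mutant 3 was not tested.

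**Figure D3:**
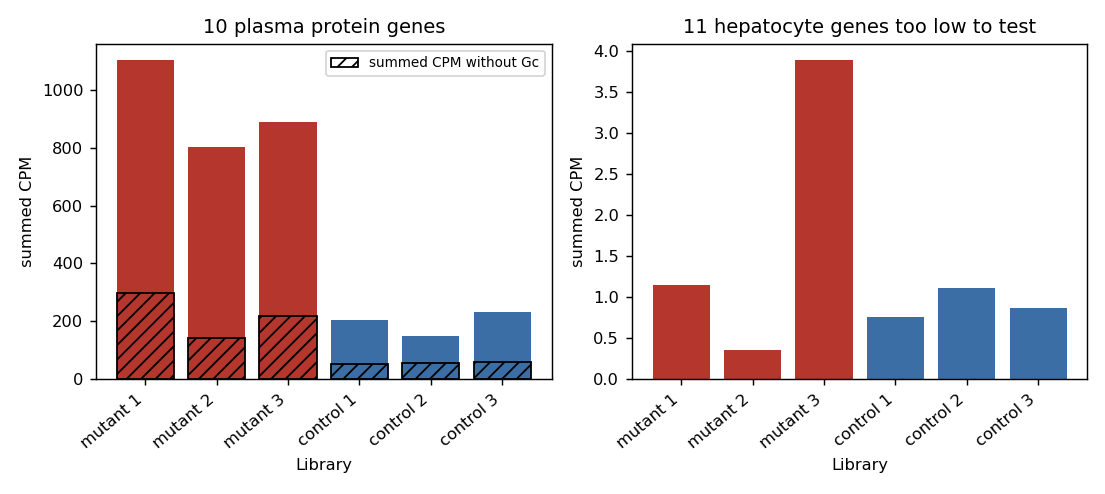
Summed CPM per library (bars from 0, mutants in red left of controls in blue) of the 10 plasma protein genes, hatched without Gc, and of 11 hepatocyte genes too low to test. The set is at 805 CPM or more in each mutant and 231 CPM or less in each control, whereas the 11 hepatocyte genes stand out in mutant 3 alone, at 3.89 CPM.

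Acute phase genes outside the set were examined because Hp, Ahsg and Itih4 respond to inflammation in liver. Of 11 tested, 2 rose and 0 fell, beside 0.545% higher and 1.51% lower among all genes tested. Those that rose were Steap4, a metalloreductase (log2 fold change 0.99 ± 0.15, edgeR adjusted p = 0.00721), and Mt2, a metallothionein (1.42 ± 0.30, edgeR adjusted p = 0.0433). Mt2 did not pass without mutant 1 or without any 1 control, with edgeR adjusted p of 0.0817 to 0.153. Saa1, Saa2 and Saa4, the liver serum amyloids, had at most 1 count in any library.

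Around the 10 genes, 75 other genes in the files had an annotated span within 250 kb, and 44 of them were tested. Serpina10, 25.8 kb from the start of Serpina6, was called higher, and 0 were called lower by edgeR or by DESeq2, beside 0.545% higher and 1.51% lower among all genes tested. At an unadjusted p under 0.05, 4 of the 44 were higher and 1 was lower, beside 5.41% and 7.36% of all genes. The median log2 fold change of the 44 was 0.01. In the serpin cluster Serpina1a and Serpina1f were at 0 in all libraries, and Serpina1c and Serpina1d had at most 3 counts in any. Copies that share sequence, such as Serpina1a and Serpina1b, can be counted too low, so the low counts of the alpha-1-antitrypsin copies are uncertain. Next to Ahsg and Fetub, the plasma protein genes Hrg, Kng2 and Kng1 had at most 2, 7 and 13 counts in any library. Itih3 and Itih1, the neighbours of Itih4, had at most 7 counts in any library. Afp, 29.8 kb from Alb, had 0, 1 and 13 counts in mutants, against 0, 1 and 0 counts in controls. Afm, the vitamin E-binding afamin 58.0 kb from Alb, was at 21.6, 20.3 and 21.2 CPM in mutants, against 16.2, 15.4 and 15.7 CPM in controls, and did not pass (edgeR adjusted p = 0.0978). Apoc3 and Apoa5, beside Apoa1, were at 0 in all libraries, and Apoa4 had 1 count in control 2.

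**Figure D4:**
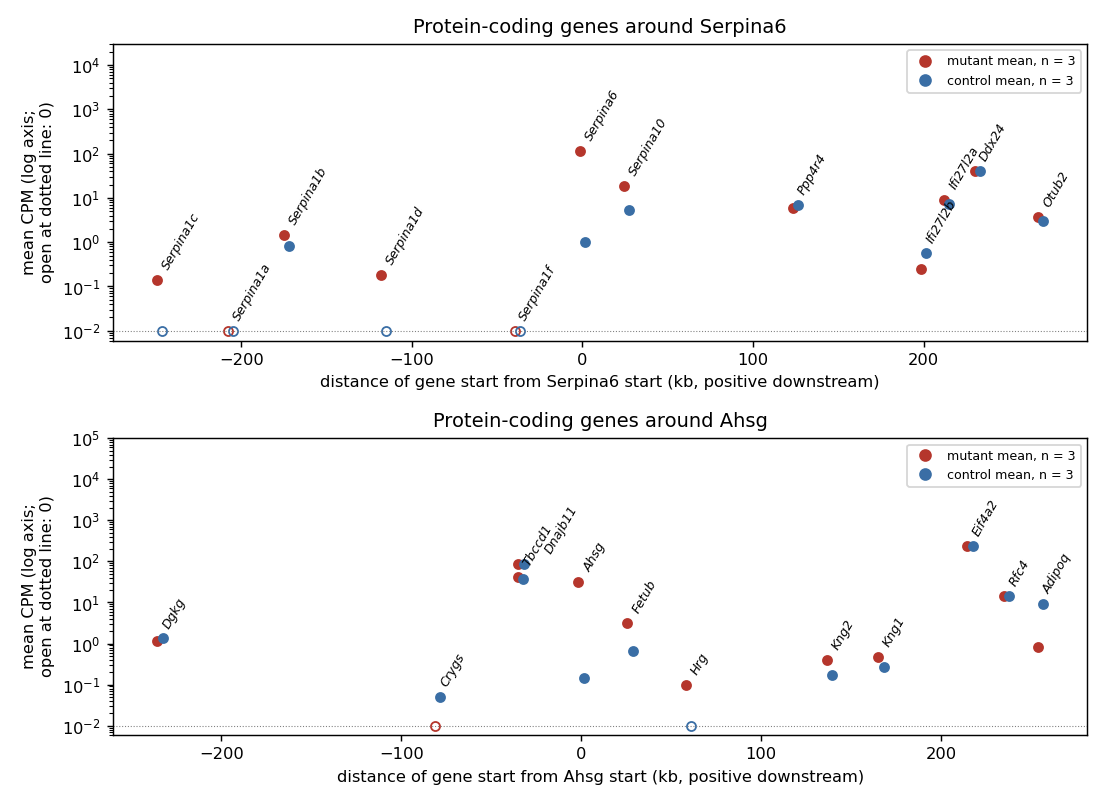
Mean CPM on a log axis (red mutant, blue control, n = 3 each, open symbols on the dotted line for 0) of protein-coding genes around Serpina6 and around Ahsg, by the distance of their starts in kb. Serpina6 and Serpina10, and Ahsg and Fetub, are higher in mutants, while the alpha-1-antitrypsin copies and the kininogen genes Kng1 and Kng2 are near 0 in both groups. Copies of alpha-1-antitrypsin that share sequence can be counted too low.

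The genes closest in pattern were found by the root mean square difference of centred log2 CPM over the 6 libraries, among all genes tested. Closest to Serpina6 and to Ahsg was 1810009J06Rik, a trypsin-family gene, at 446, 125 and 205 CPM in mutants, against 4.51, 3.09 and 1.44 CPM in controls, with differences of 0.58 and 0.67. As 81.5% of its 50-base stretches also occur in other genes, its counts are uncertain. Serpina6 and Ahsg were second closest to each other (0.83), and Gm2663, for which that share was 83.5%, was the third for both. Closest to Gc were Itih4 (0.30), the mitochondrial aldehyde dehydrogenase gene Aldh1b1 (0.36) and Mat1a (0.39). Closest to Alb were Cyp2c70 (0.25), a cytochrome P450 of bile acid metabolism, the opioid receptor gene Oprk1 (0.29) and the succinate receptor gene Sucnr1 (0.30), each of which was highest in mutant 3.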

How the data were processed

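RNA sequencing counts of 6 whole-pancreas libraries were used, 3 mutant and 3 control, grouped and numbered by their titles. Each deposited file gave counts of reads by gene symbol as whole numbers, and cutadapt 1.13, STAR, HTSeq 0.6.1p1, DESeq2 and mm10 are named in the submitters' processing notes with neither role nor order. Which annotation and strand setting were used, and how reads with several matches were treated, is not given in the sources used here, so near-identical copies can be counted too low. P-values set the difference between groups against the spread between these libraries, which in controls may be a spread between pools. Counting limits the precision of genes near 1 CPM, which is 6.65 to 10.5 counts. Within groups, pairs of libraries differed by a chi-square of 5.83 to 20.5 per degree of freedom, above sampling noise, and all were kept as separate replicates.

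With edgeR 4.0.16 (R 4.3.3), a quasi-likelihood test was run with TMM scaling, filterByExpr at its defaults and no covariate on all genes, which left 13017, with Benjamini-Hochberg adjustment and a threshold of 0.05. It was tested on simulated data with the same dispersion for all genes. That setting is simpler than these libraries, so it does not show how the test performs on genes near 0. Standard errors are the absolute log2 fold change over the square root of F. CPM used the TMM-scaled library sizes, and log2 CPM a prior count of 2. Alternatives were DESeq2 1.42.0, its size factors, library totals, no filter, a replicate block and leaving out each library. Library totals alone moved the median log2 fold change of all genes to 0.17, and fold changes are to be read relative to it. The call split was then 59.4% higher, against 26.5% with TMM.

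The genes, lists and rules were chosen with earlier results of these data known. The genes named were the 10 of the set, Prox1, up to 5 called genes of each list with the smallest adjusted p, the 3 most abundant others of each liver list, called or listed neighbours within 250 kb and the 3 closest in pattern to Serpina6, Gc, Ahsg and Alb. Others were chosen after their values were seen. Some genes that the rule names are not reported here. Older symbols were matched through RefSeq synonyms, and Hbb-bt, Ahsp and Muc2 found no match. GENCODE M21 (GRCm38, which mm10 is) gave coordinates and exon lengths, and RefSeq the promoters. Shared sequence was the share of 50-base stretches of a gene's transcripts found in transcripts of other genes. Marker lists of other pancreatic and blood cells gave the following calls. Of 9 beta cell, 10 duct, 7 neutrophil and 6 erythroid markers tested, edgeR called 0 and DESeq2 called 0, 3, 1 and 1. In the same order, 0, 2, 0 and 0 were higher and 2, 4, 3 and 5 lower at an unadjusted p under 0.05. The shares among all genes tested were 5.41% higher and 7.36% lower. The median log2 fold changes of these 4 lists were -0.36, -0.19, -1.57 and -1.81. Cel was the 1 lower of 9 acinar markers, but did not pass with the replicate block (edgeR adjusted p = 0.114), without mutant 1 or without control 2. Vil1 was the 1 tested intestinal marker, also lower. Of 10 macrophage markers C1qc and Mrc1 were called higher and C1qa lower, but C1qc did not pass in 7, Mrc1 in 6 and C1qa in 5 of 11 alternatives, where the highest edgeR adjusted p were 0.187, 0.187 and 0.154. C1qc and Mrc1 did not pass with the replicate block (edgeR adjusted p = 0.0799 and 0.101), without mutant 1, mutant 3 or any 1 control, nor C1qc without mutant 2. C1qa did not pass with library totals or without mutant 1, mutant 3, control 1 or control 2.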

Additional observations from a re-analysis of the deposited data

How the results depend on the processing

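For the 10 genes, fitted log2 fold changes over 11 alternatives kept their direction in all 8 genes tested except Ambp, with 6.34 to 7.04 for Serpina6, 2.14 to 2.55 for Gc, 1.89 to 2.56 for Fetub, 1.96 to 2.34 for Itih4, 0.68 to 1.59 for Alb, -2.31 to -1.63 for Hp and 6.91 to 11.22 for Ahsg. The number of the 10 with all mutants above all controls was 6, and 6 to 7 when 1 library was left out. Over all genes, library totals alone gave 190 higher and 130 lower calls in place of 71 and 197, and leaving out 1 library gave 27 to 99 higher and 98 to 202 lower. Of the liver lists, 8 were called higher, and 6 to 10 when 1 library was left out. The 1 called lower became 2 with DESeq2 and with no filter, and 1 to 3 when 1 library was left out. Among neighbours, library totals alone gave 3 called higher, and leaving out 1 library gave 1 to 2 higher and 0 to 1 lower. No filter gave 1 called lower, and so did the replicate block. The cause of these moves was not tested. With the replicate number as a block, 53 genes were higher and 188 lower, and 7 liver-list genes were higher. Whether the numbers pair the libraries is not known. Deviations of same-numbered libraries correlated at 0.080, 0.029 and -0.071 over 13017 genes. Mutant 1 correlated best with control 1, while mutant 2 and mutant 3 each correlated best with a control of another number. Such deviations from the means of few libraries cannot exclude a pairing. Depth limits Apoa1, Serpina1b, Hp, Fetub and Itih4, which had at most 53 counts in any library.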

Other observations

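Some liver-type genes too low for the test were seen in mutants and hardly in controls, and were chosen after their values were seen. Apoa2, a protein of high-density lipoprotein, had 5, 3 and 14 counts in mutants, against 0 counts in each control, at least 6.57-fold higher with controls set to a floor of 3 counts over the group, and at least 3.64-fold without mutant 3. Serpina11, a serpin of the same cluster as Serpina6, had 4, 1 and 5 counts in mutants, against 0 counts in each control. Lect2, a hepatocyte-secreted chemotactic factor, had 23, 7 and 10 counts in mutants, against 0, 2 and 0 counts in controls. Mutant 3 was the highest mutant in Apoa2 and mutant 1 in Lect2.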
